A study of Mus musculus with 4 samples.

Results

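Fgf8 and Fgf20 encode secreted ligands of the fibroblast growth factor (FGF) family, and both had lower signals in the mutant pools than in the control pools on each of the 4 arrays. The pair, 2 genes of 20031 genes with a tested probe, was chosen by a rule that takes every probe the array files name Fgf8 or Fgf20, and the genes themselves were selected on this same comparison. Their loss-of-function over control values are therefore a description and carry no test. The rule finds 5 probes, 3 for Fgf8 and 2 for Fgf20, each printed as 4 spots on every array.

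The arrays compared RNA of organs of Corti that had been dissected at E18.5 from the basal part of NMRI mouse cochleae. Mutant embryos carried Sox2(creERT2);Tbx2(fl/fl) and are called Sox2-Tbx2LOF, and control embryos are labelled Tbx2(fl/n.d.) and lacked the recombinase. CreERT2 is a recombinase that acts only with tamoxifen, and here it was knocked into Sox2, so that floxed Tbx2 was removed in cells that express Sox2 and in their descendants. Dams of both groups received 4 mg of tamoxifen by mouth at E16.5 and, by the methods, progesterone as well. The crosses placed 1 copy of a fluorescent membrane reporter, R26mTmG, in the embryos. Each RNA was a pool of organs sorted by sex, so no value belongs to a single embryo, and the spiral ganglion and spiral ligament had been removed. Arrays 1 and 2 held female pools and arrays 3 and 4 male pools, 1 pool of each genotype per array, which gave n = 4 pools per genotype. Sox2-Tbx2LOF RNA was in the green dye Cy3 on arrays 1 and 3 and in the red dye Cy5 on arrays 2 and 4.

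FGF ligands bind receptor tyrosine kinases (FGFR1 to FGFR4 in mammals), which signal through the RAS and MAP kinase cascade to ETS transcription factors such as ETV4 and ETV5 and to feedback inhibitors of the Sprouty, Spred and DUSP families. In the cochlea, FGF8 is made by inner hair cells (IHCs) and acts on FGFR3 in neighbouring cells that become pillar cells. FGF20 is made in the sensory epithelium and acts through FGFR1 in the formation of outer hair cells (OHCs) and outer supporting cells. FGF8 is grouped with FGF17 and FGF18, and FGF20 with FGF9 and FGF16.

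The probes are shown first because they set which transcripts were read. Coordinates refer to mouse build mm9 as the array files give it, and all 5 probes lie on the minus strand. The brighter Fgf8 probe, A_55_P2101508, covers chr19:45811355-45811414 and starts at base 1072 of its transcript. The dimmer one, A_55_P2108109, covers chr19:45811668-45811727 and starts at base 759. Both are listed for the same 4 curated Fgf8 transcripts, whereas A_55_P2101506, at chr19:45816855-45816914 and base 360, is listed for 1 of these 4. The Fgf20 probes A_55_P2180059 (chr8:41365079-41365138, base 857) and A_55_P2169499 (chr8:41365111-41365170, base 825) are listed for the same single transcript and share 28 bases, so they are not independent readings. The array files name no exon. Printed from 5′ to 3′ are 1 Fgf8 probe that gave a signal and the Fgf20 stretch that both probes read, with the base at which the Fgf20 probes differ in capitals.
A_55_P2108109 (Fgf8, whole probe): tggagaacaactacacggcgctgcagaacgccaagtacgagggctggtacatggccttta
A_55_P2169499 (Fgf20, whole probe): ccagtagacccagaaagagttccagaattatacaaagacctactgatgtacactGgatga
A_55_P2180059 (Fgf20, first 28 bases): caaagacctactgatgtacactTgatga
From A_55_P2180059 to A_55_P2169499 the difference is T23G, with positions counted from the first base of the shared stretch. In A_55_P2169499 this is base 55 of 60.

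Of the 39429 probes on each array, 28079 were bright enough to be tested. The condition for testing was that the scanner software had judged most spots of the probe to be well above background in 1 genotype, on 3 or 4 arrays. The other probes passed and A_55_P2101506 did not, so 4 of the 5 probes gave values. In the fit across all tested probes, 57 of 20031 genes (0.285%) reached an adjusted p under 0.05 together with a change of at least 1.5-fold, and 231 genes (1.15%) an adjusted p under 0.05 alone (limma, Benjamini-Hochberg). Both Fgf8 and Fgf20 are among the 57, which their choice fixed. The single Tbx2 probe was at a log2 ratio of −0.15 (adjusted p = 0.313, lower on 4 of 4 arrays) and the Sox2 probe at 0.23 (adjusted p = 0.0875, higher on 4 of 4 arrays). The Tbx2 probe is not known to lie in the floxed part, so it is no check of the deletion.

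Fgf8 had the lower ratio of the pair. With A_55_P2101508, the log2 channel level (the brightness of 1 genotype after normalization) was 10.56, 10.99, 10.64 and 10.56 in the control pools of arrays 1 to 4. In the Sox2-Tbx2LOF pools of the same arrays it was 8.98, 9.32, 9.14 and 9.04. The groups did not overlap, and the lowest control pool lay 1.24 above the highest mutant pool, against a range of 0.43 among the controls and 0.34 among the mutants. The log2 ratio of Sox2-Tbx2LOF over control was −1.58, −1.67, −1.501 and −1.52 on arrays 1 to 4, with a mean of −1.57 ± 0.07 (SD, n = 4), that is, 33.8% of the control level. Array 2 gave the highest level in the control pools and also in the mutant pools.

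The dimmer Fgf8 probe gave the same direction. A_55_P2108109 had control levels of 8.33, 8.75, 8.496 and 8.47 on arrays 1 to 4 and Sox2-Tbx2LOF levels of 7.10, 7.47, 7.32 and 7.14. Again no mutant pool reached a control pool, with a gap of 0.86. Its log2 ratio was −1.23, −1.29, −1.18 and −1.33, with a mean of −1.26 ± 0.07 (SD, n = 4). This mean lay closer to 0 than that of the brighter probe by more than either SD. The difference between the probes depended on the treatment of background. An offset of 50 was added to each signal before taking logs, which pulls dim signals together, and the raw mutant signals of this probe were 98.0, 190, 133 and 134 over local backgrounds of 31.5, 75.4, 31.0 and 68.2. In the ratio of the scanner software, which adds no offset, the order of the probes turned, with −1.83 ± 0.14 for A_55_P2108109 and −1.70 ± 0.08 for A_55_P2101508 (SD, n = 4).

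The third Fgf8 probe, A_55_P2101506, was not well above background on any array in either genotype. Its raw signals lay at or near the local background, for example 31.1 over 31.6 in the mutant channel and 83.3 over 77.0 in the control channel of array 1. No fold change is given for it. The level of the transcript that it lists could not be read from these arrays beyond the signals of the shared probes.

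**Figure D1:**
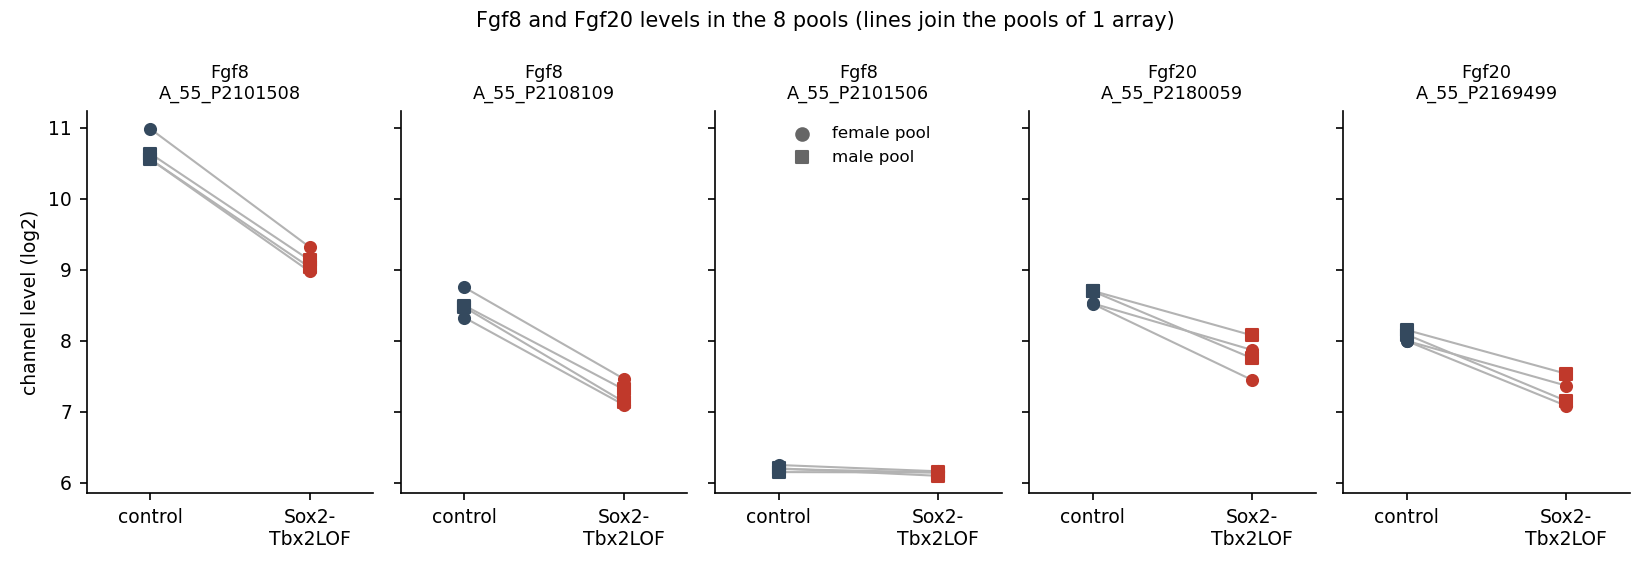
Log2 channel level (y axis) of the 3 Fgf8 and 2 Fgf20 probes in the control and Sox2-Tbx2LOF pools (x axis), with circles for female pools, squares for male pools and a line for each array. All lines fall for the 4 probes with signal, the gap between groups is 1.24 for A_55_P2101508 and 0.44 for A_55_P2180059, and A_55_P2101506 stays near background in both groups.

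Fgf20 was lower by a smaller ratio and with more spread. With A_55_P2180059, control levels were 8.52, 8.53, 8.70 and 8.70 on arrays 1 to 4, a range of 0.18. Sox2-Tbx2LOF levels were 7.45, 7.87, 8.08 and 7.76, a range of 0.63. The groups did not overlap and were 0.44 apart, and the mutant pools spread more widely than the control pools. The log2 ratio was −1.07, −0.66, −0.63 and −0.94, with a mean of −0.82 ± 0.22 (SD, n = 4), or 56.5% of the control level. Arrays 1 and 4 thus showed the larger decreases and arrays 2 and 3 the smaller ones, and each of these pairs holds 1 female and 1 male array and both dye orientations.

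The overlapping probe A_55_P2169499 showed the same split. Its control levels were 7.996, 7.999, 8.15 and 8.09, its Sox2-Tbx2LOF levels 7.09, 7.37, 7.54 and 7.15. The log2 ratio was −0.91, −0.63, −0.62 and −0.93, with a mean of −0.77 ± 0.17 (SD, n = 4). The SD of the 4 spots of a probe within an array was 0.04 to 0.12 for A_55_P2180059 and 0.06 to 0.17 for A_55_P2169499, so for the brighter probe the spread between arrays was larger than that within any array. In the ratio of the scanner software the means were −1.11 ± 0.34 and −1.21 ± 0.31 (SD, n = 4), and arrays 1 and 4 again gave the larger decreases with both probes. As pooled tissue was measured, fewer cells that express a gene and less RNA of it per cell cannot be told apart, for Fgf8 and Fgf20 alike.

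**Figure D2:**
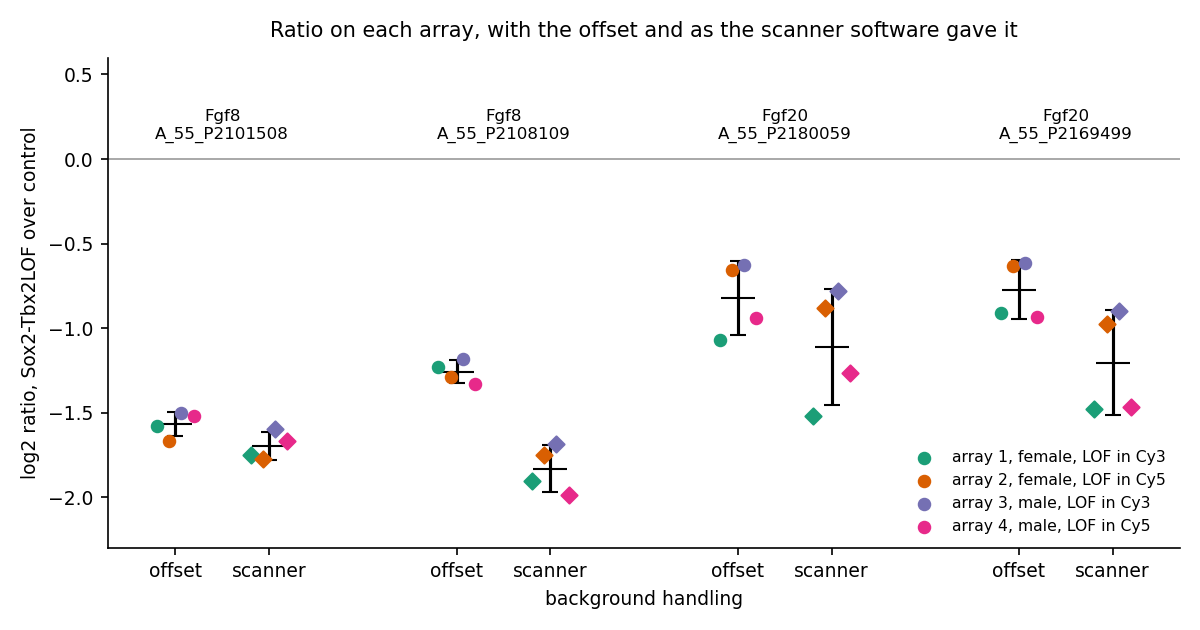
Log2 ratio of Sox2-Tbx2LOF over control (y axis) on each array for the 4 probes with signal, after background correction with an offset of 50 (circles) and as given by the scanner software (diamonds), with the mean and SD of 4 arrays as a bar with whiskers. Fgf8 ratios lie close together on the 4 arrays, whereas Fgf20 ratios of arrays 1 and 4 lie below those of arrays 2 and 3 in both treatments.

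Sex was not used to choose the pair, and the levels were set out by genotype and sex. For A_55_P2101508, Sox2-Tbx2LOF male (mean log2 level 9.09) and female pools (9.15) came lowest, followed by control male (10.60) and control female pools (10.77). Female and male pools overlapped within each genotype. For A_55_P2180059 the order was Sox2-Tbx2LOF female (7.66), Sox2-Tbx2LOF male (7.92), control female (8.52) and control male (8.70). The mutant sexes overlapped, and the control sexes did not. With 2 pools of each sex per genotype such a separation is weak evidence of a sex difference, and its share over all probes was not computed.

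The mean level of both genotypes was compared between female and male arrays, a contrast in which 0.0499% of all genes had an adjusted p under 0.05. Fgf20 was at a female minus male difference of −0.22 with A_55_P2180059 (95% interval −0.43 to 0.001, adjusted p = 0.691, limma) and of −0.12 with A_55_P2169499 (−0.33 to 0.09, adjusted p = 0.736). Fgf8 was at 0.12 with A_55_P2101508 (−0.17 to 0.40, adjusted p = 0.805) and at 0.05 with A_55_P2108109 (−0.24 to 0.34, adjusted p = 0.916). None of the 4 passed the test, and the intervals reach differences of 0.40 for Fgf8 and −0.43 for Fgf20. Without array 2, the Fgf8 difference changed sign, to −0.08 and −0.14 for the respective probes.

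Nor did the ratio of Sox2-Tbx2LOF over control differ between the sexes at the threshold. The female minus male difference of the log2 ratio was −0.11 for A_55_P2101508 (95% interval −0.36 to 0.14) and −0.08 for A_55_P2180059 (−0.49 to 0.33), with an adjusted p of 1.00 in limma for both. Across all genes 0% had an adjusted p under 0.05 in this interaction, while 396 genes (1.98%) had an unadjusted p under 0.05. The dye term of the fit was −0.03 for A_55_P2101508 and 0.03 for A_55_P2180059, with adjusted p = 0.787 and adjusted p = 0.878 in limma.

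The other genes of the FGF pathway were taken next. Of 55 further genes (16 secreted ligands, 4 intracellular homologous factors, 9 receptors and co-receptors, 14 transducers and 12 targets and feedback inhibitors), 51 could be tested and 0 passed both the adjusted p and the 1.5-fold limit in limma, a rule that 0.285% of all genes passed. At an adjusted p under 0.05 alone there were 2, Fgf15 and Etv4, both lower, where 1.15% of all genes passed. Fgf15 entered the test through the control channel only, in which it is the brighter, so its count is not set against that share. An unadjusted p under 0.05 in limma was seen for 12 of the 51 and for 7.87% of all genes. Fgf15 is among these 12, so this count is not set against that share either. The unpaired limma fit called 0 as well. The median log2 ratio of the 51 genes was 0.01, and that of all tested genes 0.00.

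Among the ligands, 13 of 16 were tested and their median was −0.01. Fgf15, an endocrine ligand of the FGF19 subfamily, had log2 ratios of −0.48, −0.46, −0.40 and −0.28 on arrays 1 to 4. Its mean was −0.41 ± 0.09 (SD, n = 4, adjusted p = 0.00835, limma), lower on 4 of 4 arrays. The probe was dim, being well above background on 4 of 4 arrays in control pools and on 1 of 4 in Sox2-Tbx2LOF pools, so the size of its change is poorly set and it was not among the probes that a stricter filter on both channels kept. Its ratio ran from −1.499 with the scanner software (adjusted p = 0.000293, limma) to −0.17 in the series matrix (adjusted p = 0.736, limma). The closest relatives of the pair did not pass. Fgf9 was at −0.06 ± 0.17 (95% interval −0.18 to 0.07) and Fgf18 at 0.10 ± 0.18 (−0.02 to 0.21), whereas Fgf17 and Fgf16 were not bright enough to be tested.

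Of the receptors and co-receptors, 8 of 9 were tested, none had an adjusted p under 0.05 and 0 had an unadjusted p under 0.05 in limma. Fgfr3, the receptor on which FGF8 acts in pillar cell precursors, had log2 ratios of 0.01, −0.01, 0.05 and 0.04, with a mean of 0.02 ± 0.03 (SD, n = 4, 95% interval −0.09 to 0.13). Fgfr1 was at 0.10, −0.05, 0.19 and 0.28, with a mean of 0.13 ± 0.14 (95% interval −0.01 to 0.27, adjusted p = 0.778, limma). The interval of Fgfr3 thus excludes changes as large as those of either ligand. The 14 transducers had a median of 0.02, with 0 at an adjusted p under 0.05 and 1 at an unadjusted p under 0.05 in limma.

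The targets and feedback inhibitors stood lower than the other groups. Of these 12 genes 11 had a mean ratio below 0, where 48.3% of all tested genes did. An unadjusted p under 0.05 in limma was seen for 7 of 12, against 7.87% of all tested genes. Spred1, 1 of the 7, was at 0.16, −0.45, 0.13 and −0.45 on arrays 1 to 4, with a dye term of −0.30 (adjusted p = 0.0174, limma). The median of the 12 genes was −0.15 ± 0.05 (SD of the medians of 4 arrays). The levels of the 12 genes summed to between 105329 and 109374 in the Sox2-Tbx2LOF pools and to between 119296 and 129481 in the control pools, without overlap. This unlogged sum rests mostly on the brightest genes, Dusp6 (mean log2 control level 15.15), Etv5 (14.77) and Etv1 (14.42). How often sums of other gene sets separate in this way was not computed. Only Etv4 had an adjusted p under 0.05 in limma, and no gene reached 1.5-fold. The members of this list were known as readouts of the pathway when the list was made, and no test of the list as a whole was run.

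Etv4, an ETS factor induced by FGF signals, was at −0.10, −0.48, 0.02 and −0.53 on arrays 1 to 4, with a mean of −0.27 ± 0.27 (SD, n = 4, adjusted p = 0.0479, limma). The decrease sat on the arrays with Sox2-Tbx2LOF RNA in Cy5 (mean −0.50) and was −0.04 on those with it in Cy3. The dye term of this probe was −0.23 (adjusted p = 0.0443, limma), and without a dye term the adjusted p was 0.818. A second Etv4 probe was at −0.19 (adjusted p = 0.383, limma), and the mean over both probes, −0.23, had an adjusted p of 0.0549 in limma. Etv4 also missed the threshold when array 1, 3 or 4 was left out (adjusted p = 0.208, 0.0944 and 0.0793). Etv5, its paralogue, was lower on all 4 arrays at −0.28, −0.24, −0.33 and −0.11, with a mean of −0.24 ± 0.09 and an adjusted p of 0.0769 in limma. Dusp6, a phosphatase that inactivates ERK, was at −0.00, −0.36, −0.41 and −0.49, with a mean of −0.31 ± 0.22 (adjusted p = 0.1002, limma), and passed without array 1 (−0.42, adjusted p = 0.0218) and without array 2 (−0.35, adjusted p = 0.0274). Spry4, a feedback inhibitor, was at −0.15, −0.07, 0.01 and −0.46, with a mean of −0.17 ± 0.21 (adjusted p = 0.629, limma). Over all 4 arrays, Etv5, Dusp6 and Spry4 thus did not pass the test.

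**Figure D3:**
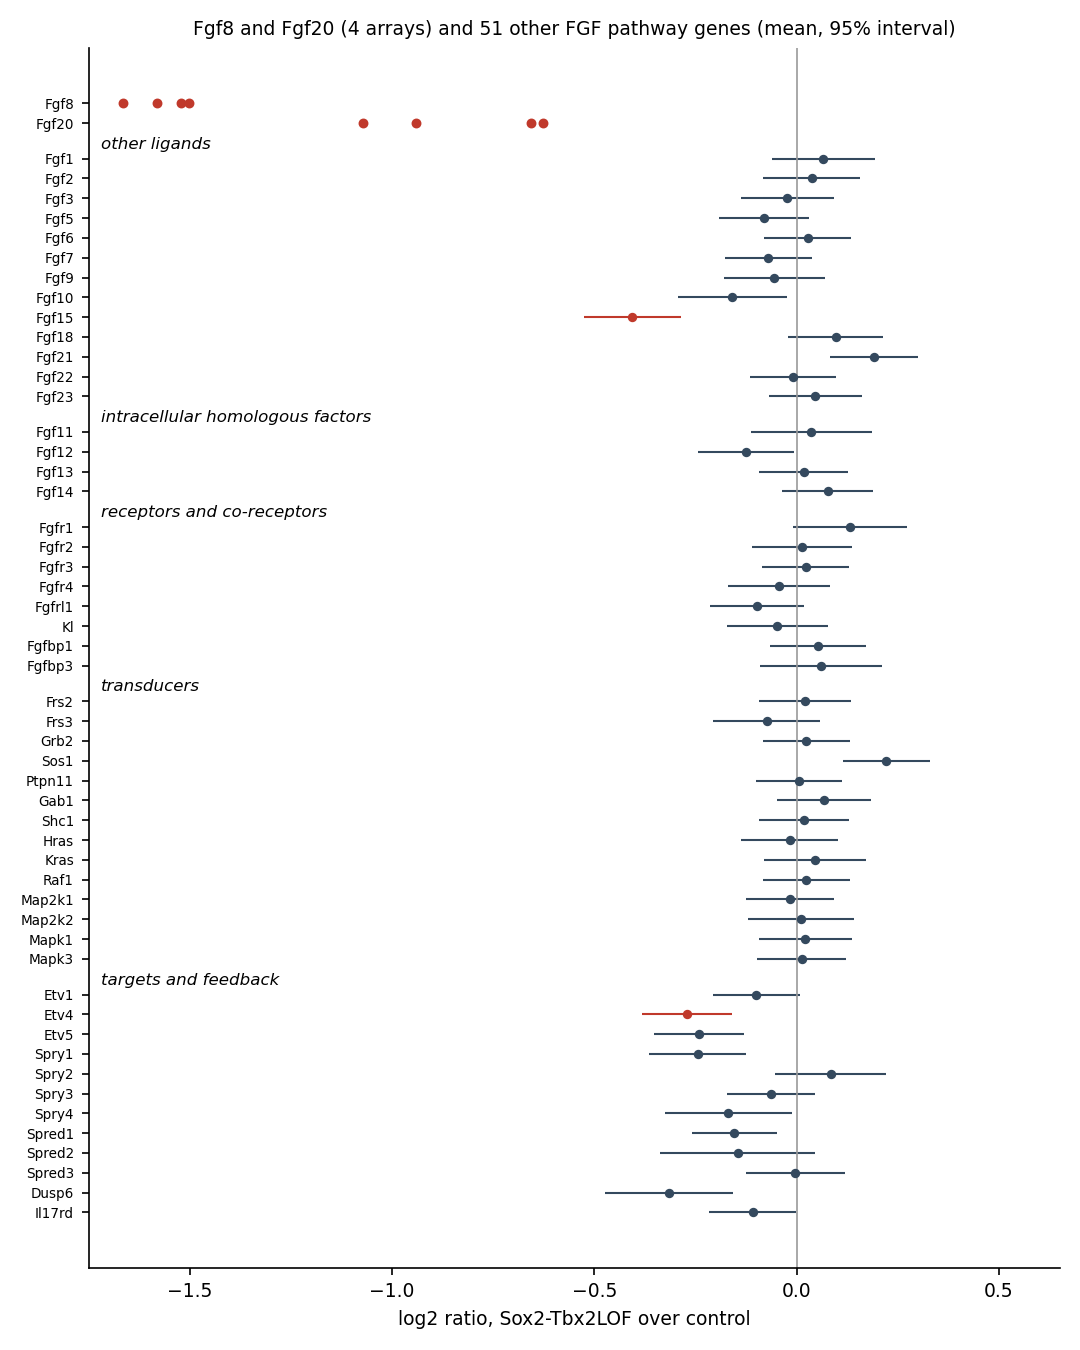
Log2 ratio of Sox2-Tbx2LOF over control (x axis) of Fgf8 and Fgf20 on each of 4 arrays (red points at the top, no test) and of 51 other FGF pathway genes as mean and 95% interval, in red where the adjusted p was under 0.05 (Fgf15 and Etv4). Of the targets and feedback inhibitors 11 of 12 lie below 0, and the receptors lie around 0.

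Across the 8 pools, the genes that varied most like Fgf8 were Pkd2l1, Wfdc12, Toporsl, Cabp2 and 1600029I14Rik. Likeness was measured as the root-mean-square difference of log2 levels over the 8 pools, after the mean of each probe had been taken off. Pkd2l1, a cation channel of the polycystin family, differed from Fgf8 by 0.12 and had log2 ratios of −1.47, −1.59, −1.35 and −1.53. It lies on chromosome 19 like Fgf8, at a distance of 1589 kb. Wfdc12 differed by 0.19 and Toporsl by 0.20, with mean ratios of −1.54 and −1.69. Cabp2, a calcium-binding protein of IHC synapses, differed by 0.27 with a mean ratio of −1.17, and 1600029I14Rik by 0.31 with −0.99.

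The genes most like Fgf20 were Cep41, Plekhs1, Ednrb, Npy and Corin. Cep41, a protein of the centrosome and the cilium, differed by 0.08, and its log2 ratios of −1.01, −0.64, −0.84 and −1.07 were largest in size on arrays 1 and 4, as for Fgf20. Plekhs1 differed by 0.13, Ednrb, an endothelin receptor, by 0.13, and both Npy, a neuropeptide, and Corin, a protease, by 0.14. Their mean ratios were −0.73, −0.86, −0.69 and −0.90. Fgf8 and Fgf20 differed from each other by 0.43. The likeness rests mostly on the genotype difference that chose the pair and is a description. With an offset of 16, 4 of the 5 genes were again named for Fgf8 and 3 of the 5 for Fgf20.

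**Figure D4:**
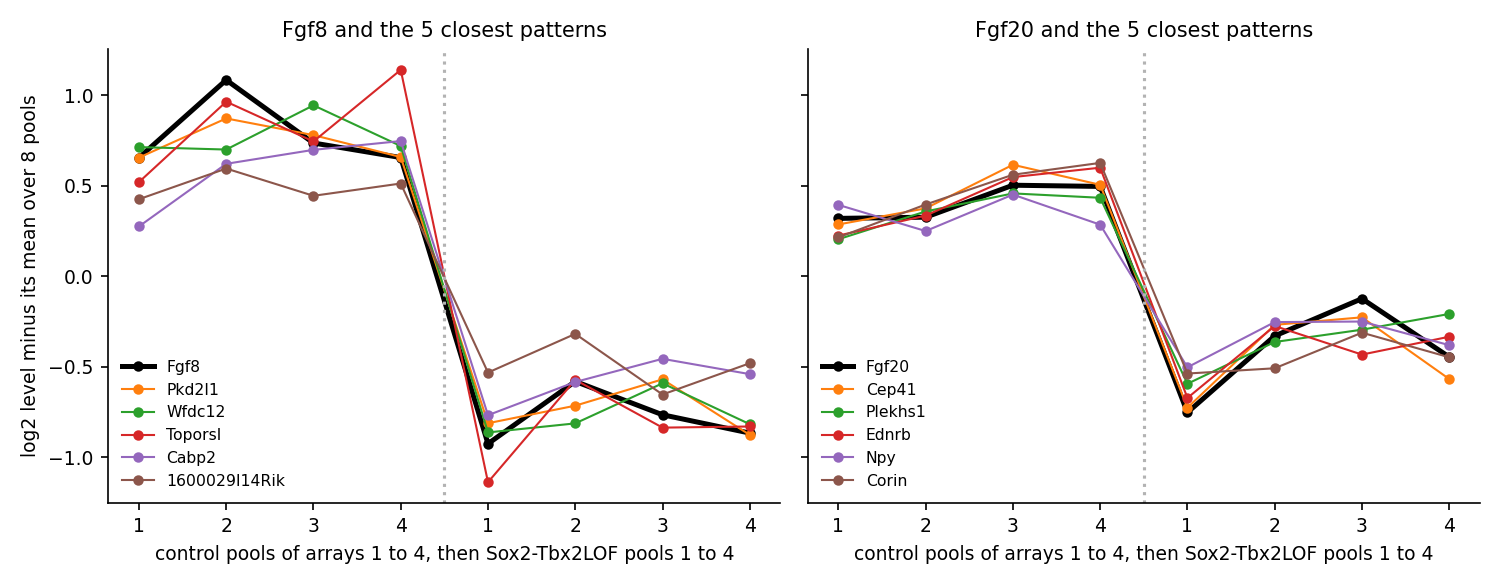
Log2 level minus its mean over the 8 pools (y axis) in the control pools and then the Sox2-Tbx2LOF pools of arrays 1 to 4 (x axis), for Fgf8 (left) and Fgf20 (right) as thick black lines, each with the 5 genes of closest pattern. Among the mutant pools, Fgf20 is lowest on array 1 and highest on array 3, as is Cep41.

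The neighbours of both genes had log2 ratios between −0.15 and 0.07. The 5 nearest named genes with a tested probe on each side of Fgf8 lay between 10.9 and 504 kb away, and their log2 ratios were between −0.05 and 0.07 with a median of −0.00. Npm3, the nearest, was at 0.03. Of these 10, 0 were called in limma and 0 had an unadjusted p under 0.05, against 0.285% and 7.87% of all tested genes. The unpaired limma fit called 0 too. At these shares, 0 calls among 10 genes say little about either locus. Around Fgf20, the 10 neighbours lay between 28.4 and 1205 kb away with log2 ratios between −0.15 and 0.04 and a median of 0.02. None was called in either fit. In the main limma fit 1 had an unadjusted p under 0.05, where 7.87% of all tested genes did. Names are those of the array, where Mgea5 and Oga next to Fgf8 are names of the same gene.

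Marker genes of the tissue were set beside the pair. Of 7 IHC markers 3 were called lower, namely Cabp2 (−1.17 ± 0.10, adjusted p = 1.05e-05), Dnajc5b (−0.81 ± 0.15) and Slc17a8, the vesicular glutamate transporter of IHCs (−0.66 ± 0.20), and the median of the list was −0.40. Across all tested genes, 0.285% were called in either direction. The study had already reported Cabp2, Slc17a8 and Otol1 as lowered on these arrays. The lists were made with earlier results known, so these calls are no independent support. A second Slc17a8 probe was at −0.12 (adjusted p = 0.618, limma), and the mean over both probes, −0.39, did not reach 1.5-fold. A second Dnajc5b probe was at −0.52 with an adjusted p of 0.00224 in limma, and missed only the 1.5-fold limit. The brighter Dnajc5b probe was well above background on 2 of 4 mutant arrays, so it entered the test through the control channel only. Its call is therefore not set against the share of all genes. Tbx2, the gene targeted here, is a member of this list, and Calb2, also an IHC marker, was at 0.01. Otof of the same list was at −0.40 ± 0.19 (adjusted p = 0.0100, limma), short of 1.5-fold. Slc7a14 went the other way, at 0.15 ± 0.04, higher on 4 of 4 arrays (adjusted p = 0.379, limma). The summed IHC marker level was 18549 to 22561 in Sox2-Tbx2LOF pools and 21474 to 24789 in control pools, ranges that overlap. This unlogged sum rests mostly on Tbx2 (mean log2 control level 13.46) and Otof (13.11). The called Cabp2 (8.83), Slc17a8 (8.65) and Dnajc5b (7.41) add little to it. Of 5 inner supporting cell markers, Otol1, an otolin of the extracellular matrix, was called lower (−0.86 ± 0.22), and the median was −0.01. Of 7 OHC markers, Strip2 was called higher (0.75 ± 0.26), Slc26a5 was not bright enough to be tested, and the median was 0.14. Ikzf2 (−0.04) and Insm1 (−0.10) of this list lay below 0. A second Strip2 probe was at 0.12 (adjusted p = 0.625, limma), and the mean over both probes, 0.44, did not reach 1.5-fold. The unpaired fit gave Strip2 an adjusted p of 0.0676 in limma. Summed OHC marker levels were 12588 to 14573 in Sox2-Tbx2LOF pools and 11615 to 12173 in control pools, without overlap. The 6 outer supporting cell markers had a median of 0.07, with 2 below 0 and 0 called. Hey2 of this list was at 0.29 ± 0.08, higher on 4 of 4 arrays (adjusted p = 0.0410, limma). The 6 genes expressed in all hair cells had a median of 0.07. Of these, 0 were called, 0 had an adjusted p under 0.05 and 1 an unadjusted p under 0.05 in limma. The last 2 shares were 1.15% and 7.87% over all tested genes. The 4 genes of all supporting cells had a median of −0.01.

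Genes of cells outside the organ of Corti were measured as well. Mesenchymal markers had a median of 0.17 (4 of 5 above 0, 0 called in limma, 3 at an unadjusted p under 0.05). Of all tested genes, 48.3% lay below 0, 0.285% were called and 7.87% had an unadjusted p under 0.05. Summed mesenchymal levels were 180262 to 190002 in Sox2-Tbx2LOF pools against 152032 to 185798 in control pools. Medians were 0.03 for neurons, 0.00 for glia, −0.08 for blood, −0.14 for melanocytes, 0.12 for endothelium and −0.00 for macrophages, with no gene called. Hba-a1, a haemoglobin gene of the blood list, and the collagen Col1a2 gave mean log2 levels of 16.90 and 16.66 in the Sox2-Tbx2LOF pools, so RNA of blood and connective tissue genes was measured in the pools. The part of these cells in the values of Fgf8 and Fgf20 was not tested.

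**Figure D5:**
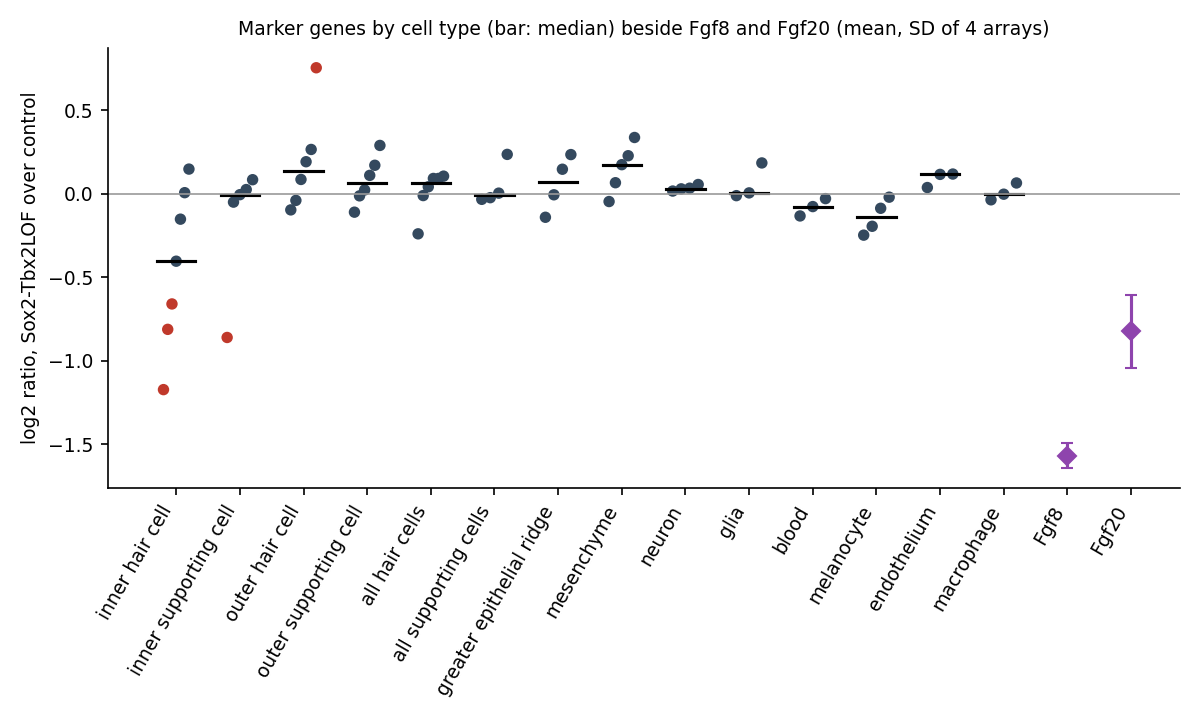
Log2 ratio of Sox2-Tbx2LOF over control (y axis) of marker genes grouped by cell type (points, red where called, bar at the median), with Fgf8 and Fgf20 as purple diamonds (mean and SD of 4 arrays). Red points are Cabp2, Dnajc5b and Slc17a8 of the IHC list, Otol1 and Strip2, and the lists of other tissues lie between −0.25 and 0.34.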

How the data were processed

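Spot intensity in the deposited scanner files was not normalized. The submitters' processing notes name Agilent Feature Extraction 10.7.3.1, and the same deposited files give a log10 ratio of red over green from that software. The deposited series matrix holds a signed fold change score whose making the sources used here do not state. Converted to log2, its direction was settled against the scanner ratios (r between 0.918 and 0.941 on the 4 arrays), and the median of each of its columns is 0. It was used only as an alternative. All 4 arrays share a slide and a scan.

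Background was corrected with normexp (offset 50) and ratios were normalized by loess within arrays, in limma 3.58.1 and R 4.3.3. Control spots and outlier spots (3.23% to 3.56% per array) were left out, and no spot was saturated. Well above background were 70.4% to 75.2% of the spots in the mutant channels and 70.6% to 74.3% in the control channels. Median spot signals were 315 to 412, and 4 arrays limit the precision. Channel levels were taken after quantile normalization of average brightness, and levels of different probes are not compared. Probes were fitted with limma with a dye term, and called at an adjusted p under 0.05 and at least 1.5-fold. Each gene was represented by its brightest tested probe. Named are all probes of both genes, pathway genes with an adjusted p under 0.05 and 9 fixed ones, the 5 closest patterns per gene, called neighbours and called markers. Fgf16, Npm3, Mgea5, Oga, Calb2, Otof, Slc7a14, Slc26a5, Ikzf2, Insm1, Hey2, Hba-a1 and Col1a2 were named after their values were seen. The methods' unpaired SAM comparison was replaced by unpaired limma on channel levels. Fits were tested on simulated data. The members and lists were chosen with earlier results of these data known. Nothing in the sources used here ties pools to litters, so p-values measure the spread between pools.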

Additional observations from a re-analysis of the deposited data

Results flagged for a closer look

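The log2 ratio of Strip2, an OHC marker, had 1 array far from the other 3. Array 1 was at 1.14 and the others at 0.58, 0.63 and 0.65, so that the gap made up 0.876 of the range, above Dixon's critical value for 4 samples. Among 28 sets of 4 values examined this was the only one, and chance gives about 1 in 20. No level or ratio of Fgf8 or Fgf20 was set apart in this way.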

How the results depend on the processing

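The ratios of Fgf8 and Fgf20 stayed below 0 under all alternatives run. For the brighter probes, the scanner software's ratio gave −1.70 for Fgf8 and −1.11 for Fgf20, the series matrix −1.70 and −1.10, and the mean of both Fgf8 probes −1.41. Leaving out 1 array gave −1.60 to −1.53 for Fgf8 and −0.94 to −0.71 for Fgf20. The count of called probes, 70, became 124 with the scanner ratio, 2 with the series matrix and 59 without the replicate block, and 66 to 106 when 1 array was left out, the highest without array 1. The count of called FGF pathway genes became 1, Fgf15, with an offset of 16 and with the scanner ratio. The count at an adjusted p under 0.05 was 1 with an offset of 16, the scanner ratio, no loess, no dye term, no replicate block, no filter on dim probes or a stricter filter, 0 with the series matrix, and 1 to 3 when 1 array was left out (1 without array 3 or array 4). Fgf15 passed in 14 of 15 settings (adjusted p 0.000293 to 0.736) and Etv4 in 5 of 16 (0.0429 to 0.818). Dusp6 passed without array 1 or array 2, and Etv5 with the mean over probes and a test per gene. The cause of these shifts was not tested.

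Signs turned for values near 0. The female minus male level of Fgf8 ranged from −0.0753 to 0.31 with A_55_P2101508 and from −0.14 to 0.25 with A_55_P2108109 when 1 array was left out, an alternative chosen after seeing the data. The sex difference of the ratio became 0.0115 for A_55_P2108109 with an offset of 16 and 0.00436 with outlier spots kept, and −0.00358 and −0.0105 for A_55_P2169499 with an offset of 16 and without loess. List medians without loess were 0.00115 for all supporting cells, −0.00278 for glia and 0.0195 for macrophages, which were at 0.00643 with the mean over probes. Fgf9 was at −0.11 to 0.00180 when 1 array was left out.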
